A study of Mus musculus with 15 samples.

Results

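Chemokines are small secreted or membrane-held proteins that call leukocytes to a tissue. The 38 genes described here are mouse chemokine ligands, chosen by symbol as every Ccl or Cxcl gene followed by a number together with Cx3cl1 and Xcl1, with Cxcl12 left out. They are 38 of the 44674 genes in the table of read counts. The rule itself used no measured value, although it was set with earlier results of these data known. RNA was sequenced as 15 libraries in 8 groups of 2 each, apart from passage 4 with 1. Whole bone marrow (WBM) was grown in EGM-2 endothelial medium, from Tie2-CreERT2;Rosa26-tdTomato mice aged 4 to 6 months, in which tamoxifen turns on a red label in cells with an active Tek promoter. At day 14 of this first culture (passage 0, P0), CD45- tdTomato+ cells were sorted by the surface protein endomucin into P0 Emcn+ and P0 Emcn- bone marrow endothelial cells (BMECs). The passaged groups P1, P2, P3 and P4 Emcn- are BMECs of later passages, lung holds Emcn- cells of lung cultures, and BM MSC holds mesenchymal stromal cells that were grown in Mesencult from Osx-Cre;Rosa26-tdTomato mice. The labels call every library wild type, whereas the methods describe reporter mice, and all cells were cultured, WBM usually from 1 mouse per dish.

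Chemokines are grouped by the spacing of their first cysteines (CC, CXC, CX3C and C) and act on G protein-coupled receptors of leukocytes, many ligands sharing a receptor and many receptors sharing ligands. Inflammatory members are switched on by signals such as interleukin 1 or interferon, whereas homeostatic members place lymphocytes and other cells within organs. In the bone marrow, Cxcl12 from stromal cells retains stem cells and neutrophils, while Ccl2 and the neutrophil attractants Cxcl1, Cxcl2 and Cxcl5 are known for drawing monocytes and neutrophils out of it. Endothelial cells can both make chemokines and display those made by others.

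The libraries held 9914620 to 39718807 counts, so that 3 counts, the limit that a count of 0 allows, stand for 0.0755 to 0.303 CPM in a library (counts-per-million, the count scaled by the library total). Summed over 10 endothelial markers, P0 Emcn+ reached 12682 and 10626 CPM, against 44.8 to 275 CPM in the 9 libraries of Emcn- BMECs, 166 and 622 CPM in lung and 42.7 and 362 CPM in BM MSC. The 8 fibroblast markers stood at 235 and 313 CPM in P0 Emcn+ and at 4385 to 21394 CPM in every other library. Thus the Emcn- groups carry their labels with low endothelial and high fibroblast transcripts. Bulk RNA cannot tell fewer cells of a type from less RNA per cell. The 5 osteolineage markers summed to 211 and 126 CPM in BM MSC, 51.9 and 185 in P0 Emcn-, 29.9 and 34.7 in lung, 18.7 to 22.9 in the passaged cells and 4.31 and 6.53 in P0 Emcn+, and the 5 genes of adipogenic stroma to 461 and 914 CPM in BM MSC, 1344 and 2168 in P0 Emcn-, 2385 and 2212 in P1, 710 to 1274 in the later passages, 789 and 694 in lung and 139 and 123 in P0 Emcn+. The labels give 4 batches. In lung and both P0 groups replicate 1 was batch d and replicate 2 batch a, replicate 1 of each passaged group was batch b, and replicate 2 of P1 to P3 and both BM MSC libraries were batch c. The methods describe 3 batches of replicates, the first sequenced on a different Illumina instrument from the others. How these relate to the 4 batches of the labels is not stated there.

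Of the 38 genes, 33 had a count in some library and 5 were at 0 in all 15, namely Ccl1, Ccl22, Ccl26, Ccl27b and Xcl1. The filter on low counts left 27 genes for testing. Summed over the 38 genes, the chemokine transcripts made up 463 and 817 CPM in P0 Emcn+, 484 and 441 in P0 Emcn-, 1238 and 1138 in lung, 264 and 434 in BM MSC, and 188 to 475 CPM in the 7 passaged libraries. Lung stood above all other groups, BM MSC below both P0 groups, and the P0 groups overlapped each other and the single P4 library.

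**Figure D1:**
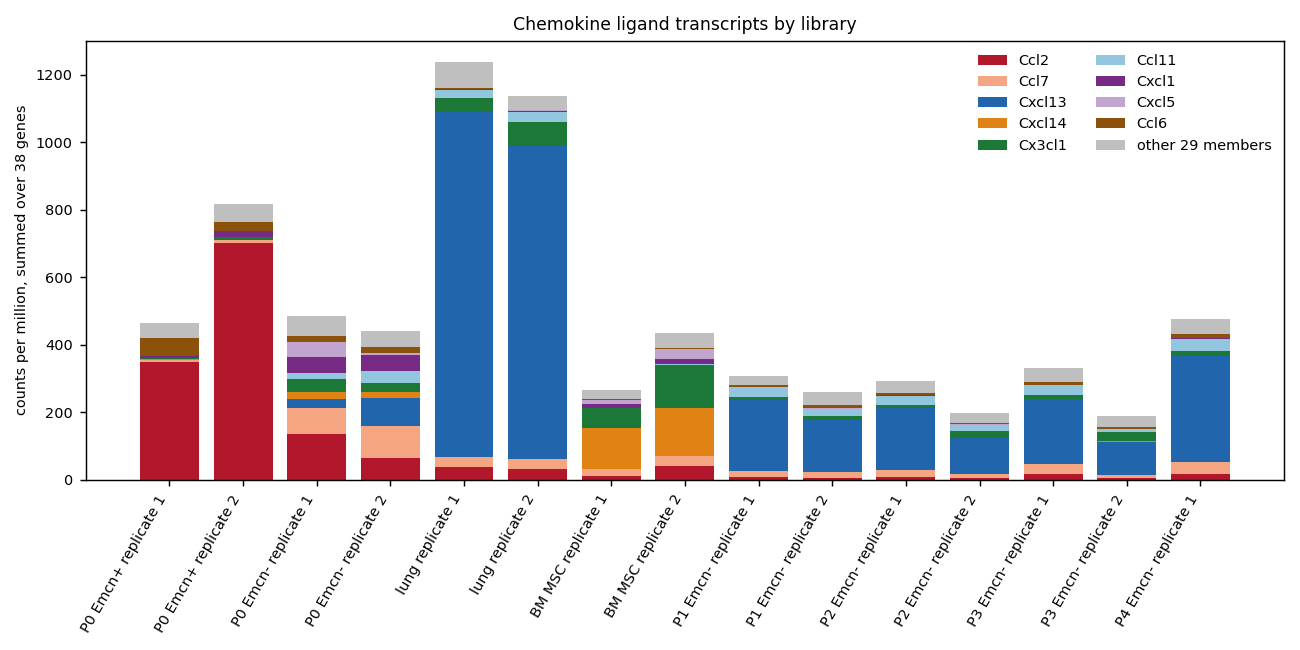
Chemokine ligand transcripts in each of the 15 libraries, as stacked bars of CPM (linear axis from 0) over the 38 genes, with 9 genes in colour and the other members in grey. Ccl2 fills most of the P0 Emcn+ bars (350 and 700 CPM), Cxcl13 most of the lung bars (1022 and 926 CPM) and over 50% of every passaged bar, and Cxcl14 and Cx3cl1 together most of the BM MSC bars.

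The leading ligand differed between P0 Emcn+, BM MSC and lung, and lung and the passaged cells shared theirs. Divided by transcript length, so that genes can be set beside each other, Ccl2 led in P0 Emcn+ with a mean of 461 CPM per kb, and the next gene, Ccl6, had 21.3. In P0 Emcn- no gene stood alone, with Ccl7 at 105, Ccl2 at 88.4 and Cxcl13 at 49.0 CPM per kb. The order of the first 2 was not settled, since Ccl2 had the higher level per kb in replicate 1 and Ccl7 in replicate 2. Cxcl13 led in lung with 847 CPM per kb, ahead of Ccl7 with 37.8, and also in P1, P2, P3 and P4 with 159, 125, 126 and 273. In BM MSC the first place belonged to Cxcl14 with 72.3 CPM per kb, ahead of Ccl7 with 30.6.

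**Figure D2:**
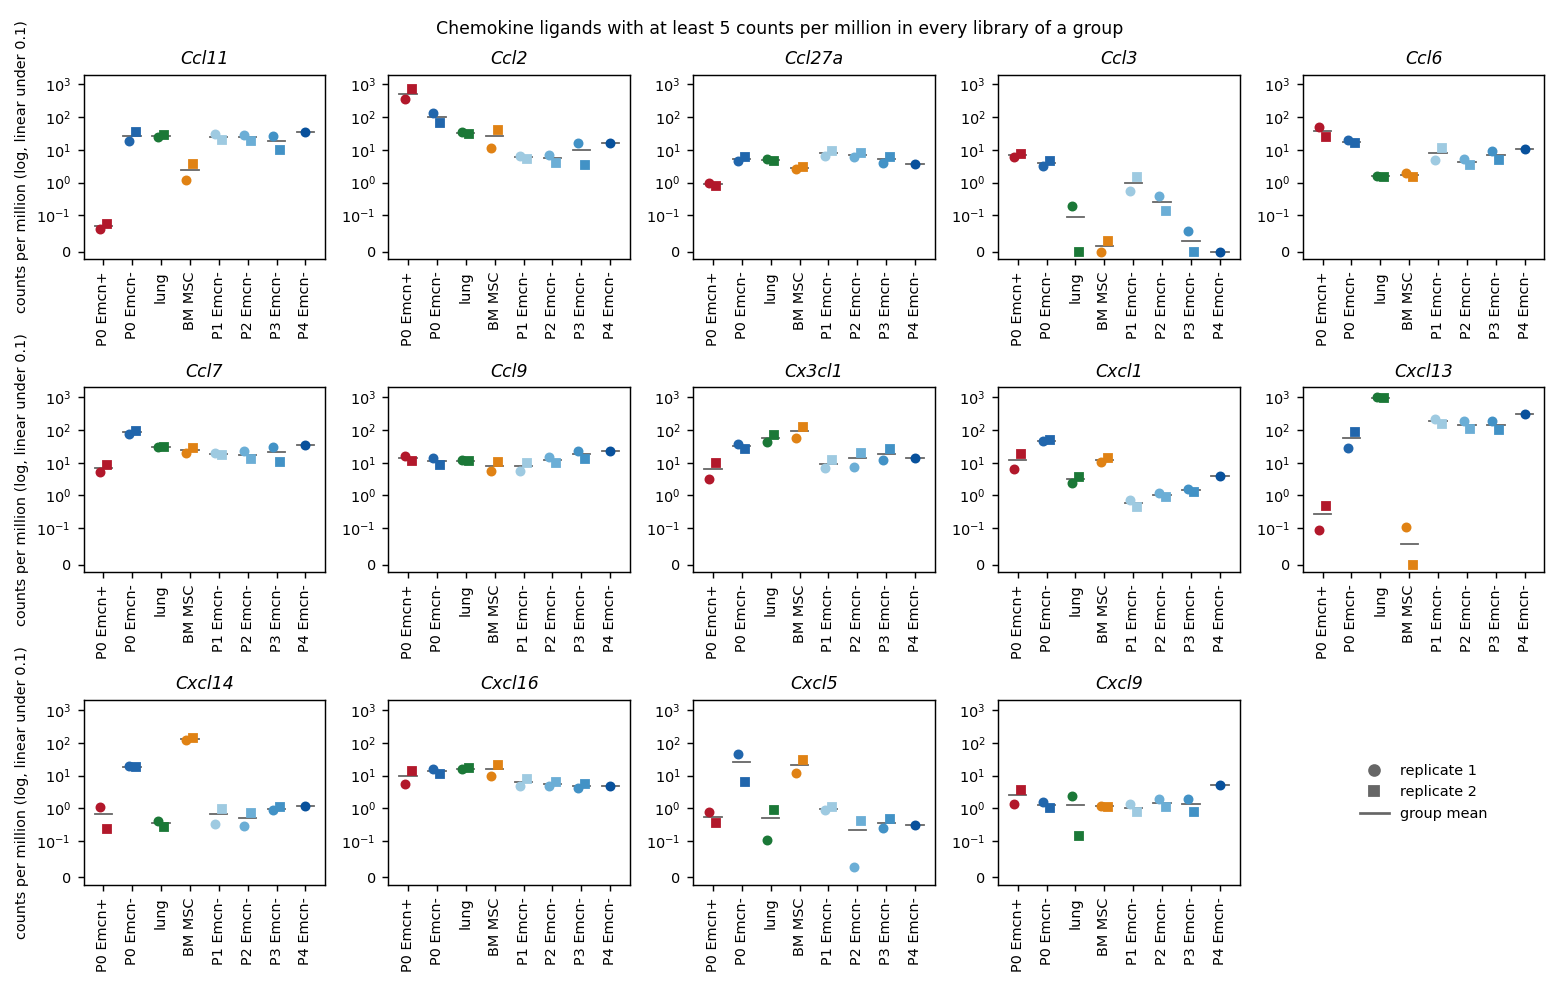
Level of the 14 chemokine ligands that reached at least 5 CPM in every library of some group, with 1 point per library (circle, replicate 1, and square, replicate 2) and a line at the group mean, on a log axis that is linear under 0.1. Cxcl13 spans from 0 in a BM MSC library to 1022 CPM in lung, Ccl11 is under 0.1 CPM in P0 Emcn+ alone, and Ccl9 and Cxcl16 differ least between groups.

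The first comparison sets the 2 BMEC populations sorted from P0 cultures side by side. P0 Emcn+ exceeded P0 Emcn- in Ccl2 and Ccl12, both attractants of monocytes, whereas 10 ligands were lower: Ccl7, Ccl11, Ccl19, Ccl27a, Ccl28, Cx3cl1, Cxcl1, Cxcl5, Cxcl13 and Cxcl14. A gene was called at an adjusted p under 0.05 in edgeR's quasi-likelihood test (Benjamini-Hochberg over the 19401 genes tested) with an absolute log2 fold change above 1.5. Thus 7.41% of the 27 ligands tested were called higher and 37.0% lower, where the same rule called 7.79% of all tested genes higher and 11.4% lower. The median log2 fold change of the ligands was -0.50 and that of all genes -0.06. Set within each batch, 9 of the 27 were higher and 11 lower in both, and 7 went opposite ways or were level. Such shares were not counted over all genes.

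Lung against P0 Emcn- compares Emcn- cells of the 2 organs. Cxcl13, the attractant of B cells, was higher in lung, and Ccl3, Ccl4, Ccl6, Cxcl1, Cxcl5 and Cxcl14 were lower. That is 3.70% of the ligands tested called higher and 22.2% lower, against 2.13% and 1.7% of all genes. The median of the ligands was -0.76 on the log2 scale (-1.40 over the 25 with more than 3 counts in either group) and that of all genes 0. Within the batches, 4 ligands were higher in both, 11 lower in both and 12 mixed or level, again without a count over all genes.

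BM MSC were compared with P0 Emcn- and with the passaged Emcn- cells (mean of P1, P2 and P3), to place them beside cells labelled Emcn- BMECs. By the markers above, these cells were also low in endothelial and high in fibroblast transcripts. Of the 10 endothelial markers, 7 were called higher and 1 lower in BM MSC than in the passaged cells. Against P0 Emcn- 0 were called higher and 1 lower. Against P0 Emcn-, Cxcl14 and Cxcl15 were higher and Ccl3, Ccl4, Ccl6, Ccl7, Ccl11, Ccl12, Ccl19, Cxcl1, Cxcl2 and Cxcl13 lower, which is 7.41% and 37.0% of the ligands tested against 11.3% and 7.45% of all genes. Against the passaged cells, Ccl2, Ccl5, Cx3cl1, Cxcl1, Cxcl5, Cxcl14 and Cxcl15 were higher and Ccl6, Ccl11 and Cxcl13 lower, or 25.9% and 11.1% against 8.42% and 5.81% of all genes. The medians of the ligands were -1.86 and 0.20, and those of all genes 0.01 in both. With members at 0 in a group set to their limit, the first median was -1.69 and the second 0.21. No batch holds both BM MSC and P0 Emcn- libraries, so batch and group cannot be told apart in the first comparison, and the cells also differed in medium and mouse line. The second can be made within batch c, where all 10 calls held and 2 more ligands were called lower, Ccl27a and Ccl21a. Ccl21a is uncertain, since its reads can be split between near-identical copies. That fit took replicate 2 of P1, P2 and P3 as replicates of the same condition. Cultures were passaged serially, so these libraries may come from the same culture and cannot be counted as independent. The main fit likewise took all passaged libraries as independent of each other. Its SE and adjusted p for BM MSC over the passaged cells and for P3 over P1 share this limit.

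The passages were compared in 2 steps. From P0 to P1 Emcn-, 6 ligands fell, namely Ccl2, Ccl7, Cxcl1, Cxcl2, Cxcl5 and Cxcl14, and 0 rose, which is 22.2% of the ligands tested against 3.07% of all genes lower and 5.77% higher. The median of the ligands was -1.38, that of all genes 0.02. At an unadjusted p under 0.05, 13 ligands passed in either direction, and the share of all genes at that limit was not counted. P0 and P1 share no batch, and passage and batch cannot be told apart. From P1 to P3, 0 ligands were called in either direction, against 0.0773% of all genes higher and 0.144% lower. At an unadjusted p under 0.05, 5 ligands passed, again without a share of all genes to set beside them. DESeq2's Wald test called 2 lower, Ccl3 and Ccl4, and edgeR with no filter on low counts called Ccl3 lower (-4.76, adjusted p = 0.0414). The comparisons with P0 Emcn- all share its 2 libraries and are therefore not independent of each other, and both BM MSC libraries enter 2 comparisons.

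**Figure D3:**
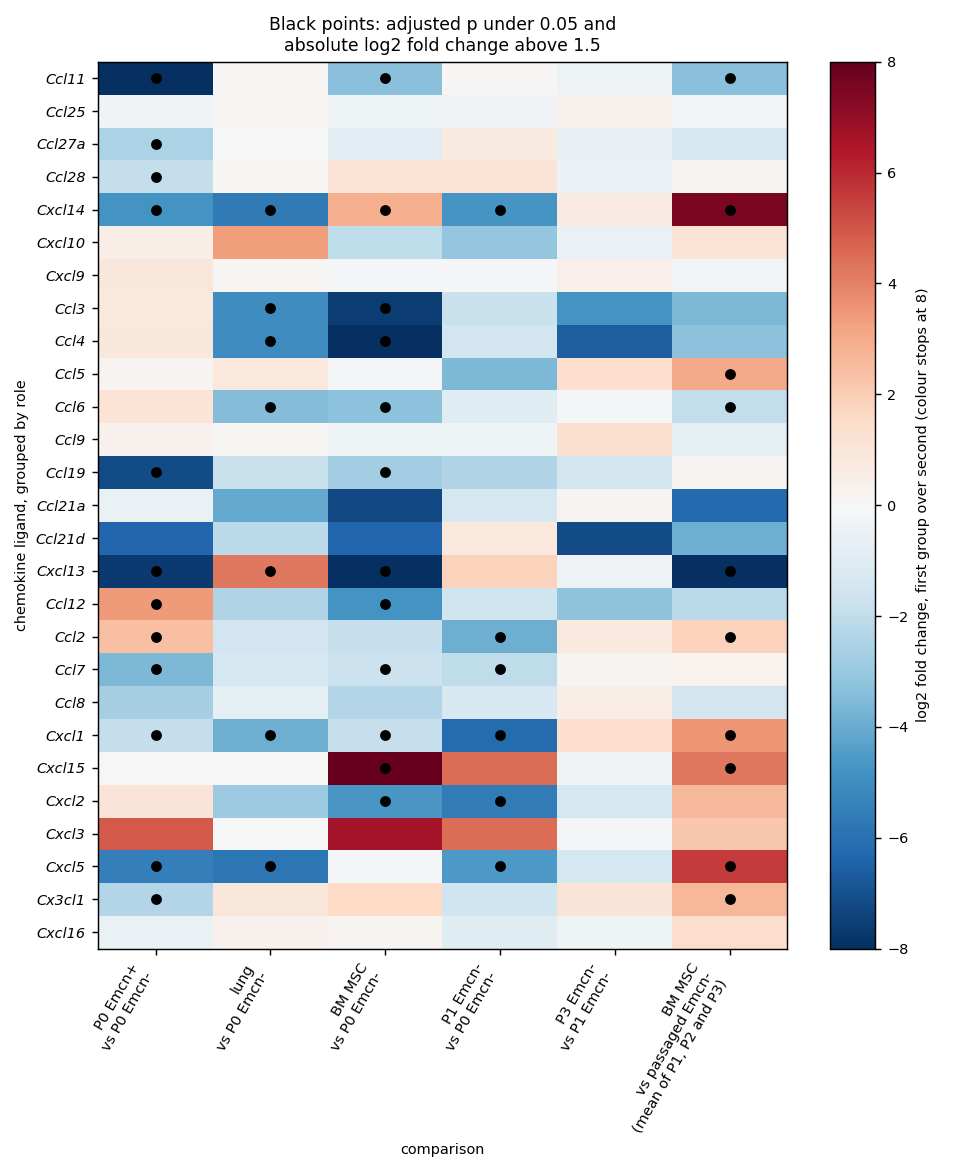
Fitted log2 fold change of the 27 tested chemokine ligands (rows, grouped by role) in the 6 comparisons (columns), with red for higher in the first group, blue for lower, colour stopping at 8, and a black point where the gene was called. Cxcl1 and Cxcl14 carry a point in 5 comparisons, Cxcl5 and Cxcl13 in 4, and the P3 against P1 column carries none. Values of Ccl12, Ccl21a, Ccl21d, Cxcl3, Cxcl15 and Ccl4 rest on a group at 0 in some columns, where the fitted number depends on the fit.

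Among the monocyte chemoattractant proteins, Ccl2 and Ccl7 are neighbours on chromosome 11 (GRCm38 82035571-82037453 and 82045712-82047525, both on the plus strand) that act on Ccr2 and, for Ccl7, further receptors. Ccl2 stood at 350 and 700 CPM in P0 Emcn+, 136 and 64.9 in P0 Emcn-, 36.0 and 31.4 in lung and 11.3 and 41.7 in BM MSC. In the passaged cells it stood at 6.60 and 5.27 CPM in P1, 6.94 and 4.08 in P2, 16.3 and 3.55 in P3 and 16.0 in P4. The P0 Emcn+ libraries lay above all others, and the P0 Emcn- libraries above all of the rest. The log2 fold change of Ccl2 was 2.41 (SE 0.75, adjusted p = 0.0315) in P0 Emcn+ over P0 Emcn- and -3.93 (SE 0.82, adjusted p = 0.0112) in P1 over P0 Emcn-. The first ratio was 2.56 in batch d and 10.8 in batch a. Leaving out P0 Emcn+ replicate 2 ended the call (1.84, adjusted p = 0.151), as did leaving out P0 Emcn- replicate 2 (1.98, adjusted p = 0.166). The fall from P0 to P1 missed the threshold without P0 Emcn- replicate 1 (adjusted p = 0.055), P1 replicate 1 (0.0808) or P1 replicate 2 (0.0814), with log2 fold changes of -3.29 to -4.12. BM MSC over the passaged cells gave 1.82 (SE 0.55, adjusted p = 0.0302), where the groups overlap, and 0.63 (adjusted p = 0.584) without BM MSC replicate 2. This call was also lost without P1 replicate 1, P1 replicate 2 or P2 replicate 2, with adjusted p of 0.053 to 0.0679. BM MSC over P0 Emcn- was not called for Ccl2, but was lower in DESeq2's Wald test (-1.80, adjusted p = 0.0291), with no filter in edgeR (-1.89, adjusted p = 0.0376) and without BM MSC replicate 2 (-3.06, adjusted p = 0.0387) or either P3 library.

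Ccl7 had the opposite order in the sorted cells. It was at 5.32 and 8.42 CPM in P0 Emcn+ and at 75.5 and 92.8 CPM in P0 Emcn-, with 30.7 and 30.0 in lung, 20.3 and 28.8 in BM MSC and 10.4 to 35.9 over the passaged libraries. P0 Emcn- was the highest group and P0 Emcn+ the lowest, with no overlap with the others. The log2 fold change was -3.58 (SE 0.51, adjusted p = 0.000429) in P0 Emcn+ over P0 Emcn-, a call that held under every alternative, and -2.06 (SE 0.47, adjusted p = 0.0174) in P1 over P0 Emcn-. The latter was lost without either P1 library (adjusted p = 0.0916 and 0.104). The replicate block is a fit with terms for batch a against d and batch b against c. It cannot remove batch from a comparison of groups that share none, such as BM MSC or P1 with P0 Emcn-. In BM MSC over P0 Emcn- the log2 fold change of Ccl7 was -1.69 (SE 0.47, adjusted p = 0.0192), and with this block -1.22, short of the fold limit. That call also ended without either BM MSC library or P0 Emcn- replicate 2 (adjusted p = 0.0519 to 0.114).

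The other 2 genes of the group were scarce. Ccl12, a mouse ligand of Ccr2, had 1.49 and 1.00 CPM in P0 Emcn+, 0.126 and 0.101 in P0 Emcn- and at most 0.0461 elsewhere. Its log2 fold change in P0 Emcn+ was 3.38 (SE 0.75, adjusted p = 0.00919), against an adjusted p of 0.0792 in DESeq2 and 0.0584 without P0 Emcn- replicate 1. In BM MSC it had 0 counts, so P0 Emcn- was at least 2.76-fold higher by the limit of 3 counts over the group (adjusted p = 0.0271). That call rests on 6 counts and was lost with the replicate block (adjusted p = 0.0745) and without either BM MSC library or P0 Emcn- replicate 1 (0.0817 to 0.128). Ccl8 stood at 6.12 CPM in P0 Emcn- replicate 1 but 0.303 in replicate 2, with 0.386 to 2.86 CPM elsewhere. It was not called by edgeR, although DESeq2's Wald test had it lower in P0 Emcn+ (log2 -2.55, adjusted p = 0.0344), as had edgeR without P0 Emcn- replicate 2 (-3.49, adjusted p = 0.0059).

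Ccl11 (eotaxin-1, chromosome 11, 82057823-82062955, plus strand) recruits eosinophils through Ccr3. It was nearly absent from P0 Emcn+ with 0.0634 and 0.0773 CPM, low in BM MSC with 1.21 and 3.62, and at 18.7 and 34.1 in P0 Emcn-. Lung had 24.1 and 29.0 CPM, and the passaged libraries 9.77 to 35.1. Every library of P0 Emcn-, lung and the passages lay above every library of P0 Emcn+ and BM MSC. The log2 fold change was -8.43 (SE 0.90, adjusted p = 7.3e-05) in P0 Emcn+ over P0 Emcn-, -3.36 (SE 0.61, adjusted p = 0.00252) in BM MSC over P0 Emcn- and -3.33 (SE 0.56, adjusted p = 0.00173) in BM MSC over the passaged cells. All 3 calls held in every fit, although without BM MSC replicate 2 the last 2 were -4.32 and -4.28. The other eotaxins, Ccl24 and Ccl26, were at most 0.0609 CPM.

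Thus the neighbours Ccl2, Ccl7 and Ccl11 did not share a direction between P0 Emcn+ and P0 Emcn-. Their cluster on chromosome 11 spans 270.1 kb and holds Ccl2, Ccl7, Ccl11, Ccl12, Ccl8 and Ccl1. Of these, 2 were called higher in P0 Emcn+ and 2 lower, against 7.79% and 11.4% of all genes. Ccl8 was not called and Ccl1 had no count. Both higher calls, Ccl2 and Ccl12, were lost in some fits, as given above, while the lower calls, Ccl7 and Ccl11, held.

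Cxcl13 was the most abundant ligand of lung and passaged cells. It is made by stromal cells of lymphoid follicles, where it guides B cells through Cxcr5, and lies on chromosome 5 (95956951-95961068, plus strand). Its level was 0.0951 and 0.464 CPM in P0 Emcn+, 28.4 and 84.3 in P0 Emcn-, 1022 and 926 in lung and 0.112 and 0 in BM MSC. The passaged cells had 211 and 154 CPM in P1, 183 and 106 in P2, 192 and 98.6 in P3 and 314 in P4. Within passages 1 to 3 the batch b library was the higher each time, and the P4 library, also of batch b, was higher still. No library of P0 Emcn- reached the lowest passaged library, and no passaged library reached lung.

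The log2 fold change of Cxcl13 in P0 Emcn+ over P0 Emcn- was -7.66 (SE 0.86, adjusted p = 9.65e-05), and leaving out a library moved it between -9.08 (P0 Emcn+ replicate 2) and -6.69 (P0 Emcn- replicate 2). Lung over P0 Emcn- gave 4.19 (SE 0.65, adjusted p = 0.0064), with CPM ratios of 36.0 in batch d and 10.98 in batch a. The fitted value was 5.15 without P0 Emcn- replicate 2 and 3.61 without replicate 1. In a fit of these 2 groups alone the adjusted p was 0.0647. In BM MSC the gene had 4 counts in all, and the log2 fold change was -9.71 (SE 0.99, adjusted p = 0.000105) against P0 Emcn- and -11.39 (SE 0.99, adjusted p = 4.89e-05) against the passaged cells. Without BM MSC replicate 1, which held these counts, the fitted values fell further, to -13.60 and -15.28. P1 over P0 Emcn- was not called, but with the replicate block Cxcl13 rose by 2.00 (adjusted p = 0.0174), and without P0 Emcn- replicate 2 by 2.82 (adjusted p = 0.0186). Between P3 and P1 the libraries overlapped. The receptor Cxcr5 was at most 0.0386 CPM in any library.

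Cxcl14 marked BM MSC. It is a homeostatic chemokine whose receptor is not settled, on chromosome 13 (56288643-56296551, minus strand). BM MSC had 122 and 142 CPM, P0 Emcn- 19.2 and 18.6, and all other libraries between 0.232 and 1.21. Neither BM MSC nor P0 Emcn- overlapped with any other group. The log2 fold change was -4.76 (SE 0.60, adjusted p = 0.0002) in P0 Emcn+, -5.64 (SE 0.65, adjusted p = 0.00187) in lung, -4.74 (SE 0.60, adjusted p = 0.000764) in P1 and 2.90 (SE 0.51, adjusted p = 0.00226) in BM MSC, each over P0 Emcn-. BM MSC over the passaged cells gave 7.51 (SE 0.41, adjusted p = 3.69e-06). These 5 calls held in every fit, and in P0 Emcn+ the value was -6.28 without Emcn+ replicate 1 and -4.08 without replicate 2. In P1 it was -5.65 without P1 replicate 2 and -4.15 without P1 replicate 1.

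The 250 bases before the start of Cxcl13 and Cxcl14 are shown because these 2 genes lead the lung and passaged cells and the BM MSC. They were read from RefSeq on GRCm38.p6, at chr5:95956689-95956938 (plus strand) and chr13:56296552-56296801 (minus strand), 5′ to 3′ along the gene. Capitals mark matches, on either strand, to an interferon-response pattern (ISRE, GAAANNGAAA) or an NF-kB pattern (kB, GGGNNNTTCC).
Cxcl13: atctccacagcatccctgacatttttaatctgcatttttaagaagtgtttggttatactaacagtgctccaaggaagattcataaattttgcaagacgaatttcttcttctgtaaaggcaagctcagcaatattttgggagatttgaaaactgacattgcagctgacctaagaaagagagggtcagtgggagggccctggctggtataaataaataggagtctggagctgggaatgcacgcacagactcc
Cxcl14: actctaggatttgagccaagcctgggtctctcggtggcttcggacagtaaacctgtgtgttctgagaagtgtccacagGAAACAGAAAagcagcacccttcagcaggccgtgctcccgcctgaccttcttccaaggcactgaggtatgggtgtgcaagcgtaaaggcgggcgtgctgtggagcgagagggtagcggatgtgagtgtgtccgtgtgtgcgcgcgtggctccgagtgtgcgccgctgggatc
Neither pattern is in the Cxcl13 window, and Cxcl14 holds 1 ISRE match that begins 172 bases before the start. RefSeq promoters were at hand for 27 of the 38 genes. A kB match was in 7 of these genes, counting a gene once over all its promoters, and in 4.65% of all 32851 single promoters. An ISRE match was in 3 of the genes and in 2.98% of the promoters. The 7 include the neighbours Cxcl1, Cxcl2 and Cxcl3.

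Ccl19 and the near-identical Ccl21 copies guide T cells and dendritic cells to lymph nodes through Ccr7. Ccl19 had 1.81 and 4.84 CPM in P0 Emcn-, 0 and 0.0386 in P0 Emcn+ (1 count in all) and 0.0561 to 1.24 in the other groups. P0 Emcn- was 139-fold higher than P0 Emcn+ (exact 95% counting interval 24.5 to 5530, adjusted p = 0.00312). It also passed narrowly against BM MSC (log2 -2.76, SE 0.97, adjusted p = 0.0498), a call lost under 14 of the other fits, 12 of them without 1 library, with adjusted p of 0.0538 to 0.188. Without BM MSC replicate 1 the value was -1.86, without replicate 2 -5.64. Reads of Ccl21a, Ccl21b and Ccl21d can be split between copies, and the level of Ccl21a went from 0 to 1.61 CPM within P0 Emcn-, so that directions are uncertain.

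The neutrophil attractants with an ELR motif, most of which act on Cxcr2, had their highest sum in P0 Emcn-, although not every member was highest there. Summed over Cxcl1, Cxcl2, Cxcl3, Cxcl5 and Cxcl15, the level was 92.8 and 58.7 CPM in P0 Emcn-, 25.3 and 46.1 in BM MSC, 11.7 and 26.1 in P0 Emcn+, 2.93 and 4.98 in lung and 1.36 to 4.37 over the passaged libraries. P0 Emcn- stood above every other group, and BM MSC and P0 Emcn+ overlapped. These 5 genes lie within 146.6 kb of chromosome 5. The promoters of Cxcl1, Cxcl2 and Cxcl3 are shown because all 3 hold the same 11 letters, GGGAATTTCCC, close to the start. Cxcl1 and Cxcl2 fell from P0 to P1 Emcn-. For Cxcl3 a fall could not be seen, since it had 0 counts in both P0 Emcn- libraries. It had 1 and 4 counts in P1. A part of these letters in the levels was not tested. The windows are chr5:90890995-90891244, chr5:90903649-90903898 and chr5:90785851-90786100 on the plus strand (RefSeq, GRCm38.p6), with kB matches in capitals.
Cxcl1: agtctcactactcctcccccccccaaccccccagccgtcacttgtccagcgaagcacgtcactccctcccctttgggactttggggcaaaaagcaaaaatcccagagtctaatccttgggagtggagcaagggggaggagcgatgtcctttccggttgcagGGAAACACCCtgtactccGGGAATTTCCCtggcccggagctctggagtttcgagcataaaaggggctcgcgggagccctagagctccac
Cxcl2: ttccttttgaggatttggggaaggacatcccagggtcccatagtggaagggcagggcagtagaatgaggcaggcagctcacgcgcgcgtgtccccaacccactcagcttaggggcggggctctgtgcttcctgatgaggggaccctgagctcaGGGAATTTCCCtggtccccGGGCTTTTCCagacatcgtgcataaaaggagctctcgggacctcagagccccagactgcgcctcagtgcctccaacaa
Cxcl3: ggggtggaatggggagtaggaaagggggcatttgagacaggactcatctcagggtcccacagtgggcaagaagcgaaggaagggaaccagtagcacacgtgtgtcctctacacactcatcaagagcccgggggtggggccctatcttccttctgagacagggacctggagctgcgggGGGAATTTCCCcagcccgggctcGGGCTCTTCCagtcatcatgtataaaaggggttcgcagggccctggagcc
The shared letters begin 71, 97 and 73 bases before the start in Cxcl1, Cxcl2 and Cxcl3.

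Cxcl1 (chromosome 5, 90891241-90893115, plus strand) had 45.7 and 48.8 CPM in P0 Emcn-, 6.56 and 18.1 in P0 Emcn+, 10.4 and 14.03 in BM MSC and 2.46 and 3.73 in lung. P1 had 0.714 and 0.430 CPM, P2 1.20 and 0.928, P3 1.61 and 1.30, and P4 3.90. The P0 Emcn- libraries were the highest and the P1 libraries the lowest. P1 over P0 Emcn- gave a log2 fold change of -6.18 (SE 0.53, adjusted p = 5.2e-05), lung -3.88 (SE 0.46, adjusted p = 0.00205), P0 Emcn+ -1.91 (SE 0.42, adjusted p = 0.00581) and BM MSC -1.86 (SE 0.42, adjusted p = 0.00761). Against the passaged cells, Cxcl1 was higher in BM MSC by 3.56 (SE 0.32, adjusted p = 5.68e-05). The P0 Emcn+ value was -1.34 without P0 Emcn+ replicate 1, within the fold limit, and -2.80 without replicate 2, and its adjusted p was 0.0513 in a fit of the 2 groups alone. The BM MSC call over P0 Emcn- missed the threshold without BM MSC replicate 1 (adjusted p = 0.0589).

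Cxcl5 differed widely between the P0 Emcn- libraries, with 44.5 CPM in replicate 1 and 6.56 in replicate 2. BM MSC had 12.4 and 30.8 CPM, and all other libraries 0.0292 to 1.08, below both. The same P0 Emcn- replicate 1 also held more of the acute-phase genes Saa3 (400 against 9.18 CPM in replicate 2) and Lcn2 (166 against 23.2), and their part in the result was not tested. The log2 fold change over P0 Emcn- was -5.48 (SE 1.16, adjusted p = 0.00465) in P0 Emcn+, -5.77 (SE 1.20, adjusted p = 0.0221) in lung and -4.58 (SE 1.10, adjusted p = 0.0204) in P1. Without P0 Emcn- replicate 1 these were -3.48, -3.78 and -2.60, the first still called and the others not (adjusted p = 0.0989 and 0.153). The lung call was also lost without lung replicate 1 (-4.84, adjusted p = 0.134), and the value was -7.74 without lung replicate 2. Without P0 Emcn- replicate 2 it was -6.26 in P0 Emcn+ and -5.39 in P1. Neither P1 library could be left out without losing the P1 call (adjusted p = 0.139 and 0.106). BM MSC exceeded the passaged cells by 5.58 (SE 0.76, adjusted p = 0.000526) in every fit, with values from 4.82 to 6.47 when a library was left out.

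Cxcl2 was highest in P0 Emcn+ with 4.31 and 7.46 CPM, ahead of P0 Emcn- with 2.52 and 3.33, a difference that was not called. Lung had 0.359 and 0.369 CPM, BM MSC 0.168 and 0.0304, and the passaged libraries 0 to 0.137. P0 Emcn- was 54.9-fold above P1, where 3 counts remained (counting interval 18.4 to 270, adjusted p = 0.00654), and the fitted log2 value went from -9.36 without P1 replicate 2 to -4.57 without P1 replicate 1. BM MSC over P0 Emcn- gave -4.68 (SE 0.89, adjusted p = 0.004), with -6.32 without BM MSC replicate 1 and -3.96 without replicate 2. Lung was called lower only in some fits, among them the replicate block (-2.89, adjusted p = 0.0399). Cxcl3 did not exceed 0.639 CPM. Cxcl15, best known from lung epithelium, had 0 counts in both P0 groups and in the lung cultures, 2.11 and 0.578 CPM in BM MSC and at most 0.148 in the passaged cells. BM MSC was at least 22.7-fold above P0 Emcn- (adjusted p = 0.018), a call lost without BM MSC replicate 1 (0.0687) or P0 Emcn- replicate 1 (0.103), and 4.24 on the log2 scale above the passaged cells (SE 0.86, adjusted p = 0.00927), lost in DESeq2 (0.0828) and without BM MSC replicate 1 (2.98, adjusted p = 0.115).

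Of 20 genes known to respond to NF-kB or interleukin 1, 19 were tested. In P1 against P0 Emcn- 4 were lower (Il6, Ptgs2, Lif and Saa3) and 0 higher, against 3.07% and 5.77% of all genes. In P0 Emcn+ against P0 Emcn- 8 were lower and 1 higher, against 11.4% and 7.79% of all genes. In BM MSC against the passaged cells 3 of the 19 were higher (Il6, Ptgs2 and Lif) and 0 lower, against 8.42% and 5.81% of all genes. In lung against P0 Emcn- 0 were called, against 2.13% of all genes higher and 1.7% lower. In BM MSC against P0 Emcn- 2 were higher and 5 lower, against 11.3% and 7.45% of all genes. The cytokine Il6 had 11.9 and 3.03 CPM in P0 Emcn-, 3.20 and 18.8 in BM MSC and 0 to 0.495 in the passaged libraries. The inhibitor Nfkbia, at 113 and 161 CPM in P0 Emcn-, was at 57.8 and 71.1 in P1, a log2 fold change of -0.93 within the fold limit. From P1 to P3 0 of the 19 were called in either direction, against 0.0773% of all genes higher and 0.144% lower.

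Ccl3, Ccl4, Ccl5, Ccl6 and Ccl9, CC ligands that are typical products of macrophages, lie within 138.9 kb of chromosome 11. Ccl3 had 6.15 and 7.46 CPM in P0 Emcn+, 3.25 and 4.54 in P0 Emcn-, 0.193 and 0 in lung and 0 and 0.0304 in BM MSC. It had 0.535 and 1.47 CPM in P1, 0.379 and 0.133 in P2, 0.0564 and 0 in P3, and 0 in P4. Ccl4 ran from 3.07 and 1.70 CPM in P0 Emcn+ and 1.33 and 1.21 in P0 Emcn- through 0.119 and 0.682 in P1 to 0 in P3, P4 and BM MSC. Both genes were highest in P0 Emcn+ and lower or at 0 at each later passage by the group means, and neither P0 nor P1 libraries overlapped with those of P3. Ccl6 had 51.6 and 24.8 CPM in P0 Emcn+, 19.6 and 16.3 in P0 Emcn-, 1.60 and 1.48 in lung, 1.96 and 1.46 in BM MSC, and 3.51 to 11.5 over the passaged libraries.

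In lung, Ccl3 fell by 4.98 on the log2 scale (SE 0.98, adjusted p = 0.0176) and Ccl6 by 3.47 (SE 0.55, adjusted p = 0.00674) against P0 Emcn-, and P0 Emcn- had 37.9-fold more Ccl4 (counting interval 10.1 to 320, adjusted p = 0.0353). The Ccl3 call was lost without lung replicate 2 (adjusted p = 0.06), while without replicate 1 the fitted value was -9.74. The Ccl6 call was lost without lung replicate 1 (0.0515). The Ccl4 call was lost without any of 7 libraries, among them each library of the 2 groups (0.0624 to 0.121), and its fitted value was -8.16 without lung replicate 1. In BM MSC against P0 Emcn-, Ccl6 was lower by 3.29 (SE 0.54, adjusted p = 0.00146), P0 Emcn- held 240-fold more Ccl3 (42.5 to 9536, adjusted p = 0.00137) and at least 29.9-fold more Ccl4 (adjusted p = 0.00363), in every fit. Against the passaged cells Ccl6 was lower in BM MSC by 1.97 (SE 0.46, adjusted p = 0.00923), except without BM MSC replicate 2 (0.0884). Ccl5 stood at 0.168 and 0.304 CPM in BM MSC and at most 0.0564 in P1 to P3 (log2 3.03, SE 0.85, adjusted p = 0.0214), but with the replicate block the adjusted p was 0.1, and without BM MSC replicate 2 it was 0.151. Ccl9 was not called anywhere, with 5.56 to 22.7 CPM over the 15 libraries.

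Macrophage markers were highest in P0 Emcn+, as were Ccl3, Ccl4 and Ccl6, while Ccl9 was higher in P3 and P4, where the markers were lowest, than in P1. The 12 markers summed to 709 and 702 CPM in P0 Emcn+, 247 and 301 in P0 Emcn-, 80.8 and 258 in P1, 41.4 and 45.6 in P2, 18.9 and 15.4 in P3 and 11.9 in P4, with 25.6 and 23.4 in lung and 25.0 and 36.5 in BM MSC. Against P0 Emcn-, 3 of the 12 were called higher in P0 Emcn+, 10 lower in lung, 11 lower in BM MSC and 1 lower in P1. From P1 to P3 4 fell, and in BM MSC 6 were lower than in the passaged cells. Of all genes, 7.79% were higher in P0 Emcn+, and 1.7%, 7.45% and 3.07% lower in lung, BM MSC and P1. From P1 to P3 0.144% fell, and 5.81% were lower in BM MSC than in the passaged cells. Of the defining markers, C1qb was at 0 in both BM MSC libraries, and Adgre1 was at 15.6 and 13.8 CPM in P0 Emcn+ and at most 0.387 in lung. The sort removed CD45+ cells, and Ptprc, which encodes CD45, was at 7.73 and 4.02 CPM in P0 Emcn+ and 3.75 and 2.62 in P0 Emcn-. P1 replicate 2 had more of the markers than replicate 1, and also more Ccl3, Ccl4 and Ccl6. The part of the markers in these results was not tested. The neutrophil list (7 genes) summed to at most 2.19 CPM in any library, the lymphocyte list (7 genes) to at most 3.59 and the megakaryocyte list (5 genes) to at most 8.47.

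**Figure D4:**
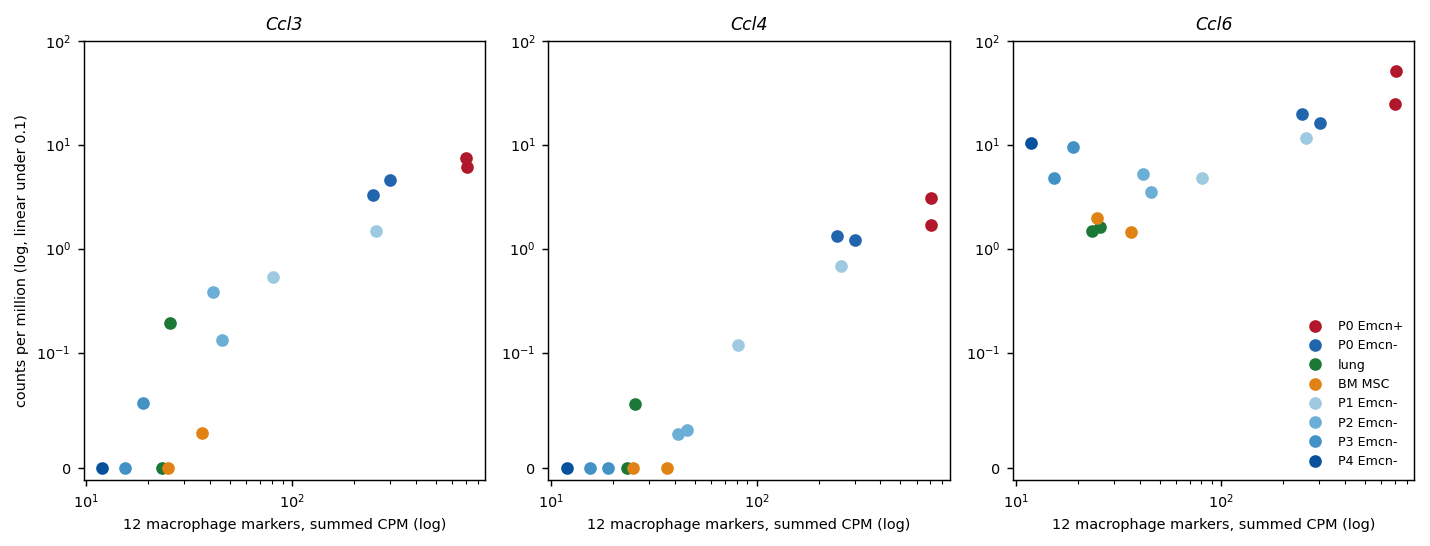
Level of Ccl3, Ccl4 and Ccl6 in each of the 15 libraries (vertical, CPM, log and linear under 0.1) beside the sum of 12 macrophage markers (horizontal, CPM, log). The P0 Emcn+ libraries, with 702 and 709 CPM of markers, are at the top right of each panel, Ccl3 and Ccl4 reach 0 among the libraries under 40 CPM, and Ccl6 stays at 10.4 CPM in P4 with 11.9 CPM of markers.

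Cxcl9, Cxcl10 and Cxcl11, which attract activated T cells through Cxcr3, lie within 44.14 kb of chromosome 5. Cxcl10 had 34.5 CPM in lung replicate 1 and 2.49 in lung replicate 2, 2.41 and 2.94 in P0 Emcn+, 2.11 and 1.61 in P0 Emcn- and 0.113 to 0.962 elsewhere. The lung libraries were far apart, and only replicate 1 lay clear of P0 Emcn+. The difference from P0 Emcn- was not called (adjusted p = 0.0655), but without lung replicate 2 it was (log2 4.27, adjusted p = 0.00118), and DESeq2's Wald test called it as well (3.36, adjusted p = 0.00346). Cxcl10 was called lower in P1 and BM MSC than in P0 Emcn- when either lung library was left out of the fit. Without lung replicate 2 the values were -3.11 (adjusted p = 0.00164) in P1 and -2.08 (adjusted p = 0.00325) in BM MSC. Cxcl9 reached 5.11 CPM in P4 and 0.138 to 3.56 elsewhere, and Cxcl11 at most 0.309, and neither was called. The promoter of Cxcl10 (chr5:92348890-92349139, minus strand, RefSeq, GRCm38.p6) is shown because it holds both an ISRE match and 2 kB matches, in capitals, that begin 213, 159 and 104 bases before the start.
Cxcl10: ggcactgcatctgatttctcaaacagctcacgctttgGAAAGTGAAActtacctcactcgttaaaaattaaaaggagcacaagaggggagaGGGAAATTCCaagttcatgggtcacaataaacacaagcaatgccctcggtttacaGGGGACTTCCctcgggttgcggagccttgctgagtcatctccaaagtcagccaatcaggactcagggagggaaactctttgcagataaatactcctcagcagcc
Against 2.13% of all genes higher and 1.7% lower, 10 of 15 interferon-response genes were called higher in lung than in P0 Emcn- and 0 lower. Their sum was 5141 CPM in lung replicate 1 and 1498 in replicate 2, against 555 and 704 in P0 Emcn-. Among them Ifit3 was at 1650 and 244 CPM in lung and 28.3 and 51.8 in P0 Emcn-. In BM MSC 5 of the 15 were lower than in P0 Emcn- and 6 lower than in the passaged cells, against 7.45% and 5.81% of all genes. In P0 Emcn+ 1, Rsad2, was higher, against 7.79% of all genes. In P1 against P0 Emcn- 0 were called, against 5.77% of all genes higher and 3.07% lower. In P3 against P1 0 were called, against 0.0773% higher and 0.144% lower.

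Cx3cl1 and Cxcl16 are the 2 ligands made as transmembrane proteins, which tether cells bearing Cx3cr1 and Cxcr6. Cx3cl1 (chromosome 8, 94772009-94782427, plus strand) had 57.5 and 126 CPM in BM MSC, 41.8 and 72.7 in lung, 38.1 and 26.0 in P0 Emcn-, 3.11 and 9.55 in P0 Emcn+ and 7.05 to 26.0 over the passaged libraries. BM MSC and lung overlapped, and P0 Emcn+ lay below P0 Emcn-. Its log2 fold change was -2.33 (SE 0.66, adjusted p = 0.0204) in P0 Emcn+ over P0 Emcn- and 2.68 (SE 0.46, adjusted p = 0.00188) in BM MSC over the passaged cells. The first missed the threshold when replicate 1 of P0 Emcn+ (-1.71, adjusted p = 0.129) or of P0 Emcn- (0.0815) was left out and was -3.33 without P0 Emcn+ replicate 2, and the second was 2.04 without BM MSC replicate 2. BM MSC over P0 Emcn- was called only in DESeq2's Wald test (1.65, adjusted p = 0.0241) and with no filter on low counts (1.56, adjusted p = 0.0454). P1 over P0 Emcn- was called only with the replicate block (-1.74, adjusted p = 0.0411) and in DESeq2's Wald test (-1.61, adjusted p = 0.0435). Cxcl16 was called only in BM MSC over the passaged cells with some library left out or with no fold limit, as at 1.85 (adjusted p = 0.012) without BM MSC replicate 1. It had 5.42 and 13.7 CPM in P0 Emcn+, 16.3 and 11.1 in P0 Emcn-, 15.9 and 16.9 in lung, 9.43 and 21.5 in BM MSC and 4.06 to 7.86 in the passaged cells.

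The remaining homeostatic ligands were low. Ccl27a, a skin-homing ligand of Ccr10, had 0.982 and 0.812 CPM in P0 Emcn+ and 4.68 and 6.05 in P0 Emcn-, with 2.53 to 9.18 elsewhere. P0 Emcn+ was the lowest group, with a log2 fold change of -2.53 (SE 0.31, adjusted p = 0.000176) that was called in every fit. BM MSC was below the passaged cells by 1.36, inside the fold limit, and by 1.57 (adjusted p = 0.0013) with the replicate block. Ccl28, a mucosal ligand of the same receptor, had 0.412 and 0.386 CPM in P0 Emcn+ and 0.906 and 2.32 in P0 Emcn- (-1.89, SE 0.55, adjusted p = 0.0227). That call was lost without either P0 Emcn+ library (0.0928 and 0.0973) or P0 Emcn- replicate 2 (-1.14, adjusted p = 0.151). BM MSC, at 2.92 and 3.20 CPM, was above P0 Emcn- only with the replicate block (1.53, adjusted p = 0.0225) or without P0 Emcn- replicate 2 (1.81, adjusted p = 0.0333). Ccl25, which draws thymocytes through Ccr9, lay between 1.35 and 2.54 CPM in all 15 libraries. The 11 genes not tested did not exceed 0.309 CPM.

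Of 23 chemokine receptors, among them the atypical receptors that take up ligands, 12 passed the filter. In P0 Emcn+ against P0 Emcn- 4 were higher (Ackr2, Ackr3, Cxcr3 and Cxcr4) and 0 lower, against 7.79% and 11.4% of all genes. In lung and P1 against P0 Emcn-, and in P3 against P1, 0 receptors were called. Of all genes, 2.13%, 5.77% and 0.0773% were called higher there and 1.7%, 3.07% and 0.144% lower. Cxcr4, the receptor of Cxcl12, had 339 and 178 CPM in P0 Emcn+ and 8.99 and 0.908 in P0 Emcn-, with a difference of 5.61 on the log2 scale (SE 1.15, adjusted p = 0.00376). The scavenger Ackr2, which binds inflammatory CC ligands such as Ccl2, had 5.04 and 4.02 CPM against 0.0504 and 0.303 (5.20, SE 0.79, adjusted p = 0.000668). BM MSC had more Ackr4, a scavenger of Ccl19 and Ccl21, than P0 Emcn-, with 23.9 and 33.6 against 1.06 and 2.22 CPM (4.31, SE 0.97, adjusted p = 0.00739). In the same comparison, where 11.3% of all genes were called higher and 7.45% lower, Ccr1, Ackr1 and Ccrl2 were lower. Against the passaged cells, where 8.42% of all genes were called higher and 5.81% lower, BM MSC had more Cxcr4 and Ackr4 and less Ackr1 and Ackr2. Ccr2, the receptor of Ccl2, did not exceed 0.665 CPM, and Cxcr2, the receptor of most of the neutrophil attractants, lay between 0.734 and 2.07 CPM. The platelet chemokines Pf4 and Ppbp, whose symbols the rule did not take in, were at most 2.16 CPM, and Pf4, the one tested, was not called.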

How the data were processed

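RNA was extracted with Trizol, and libraries were made with the KAPA RNA HyperPrep kit. The authors mapped reads with STAR to GRCm38 in the nf-core RNASeq pipeline, estimated abundance with Salmon and summarized it per gene with tximport. They deposited a table of whole-number counts without normalization, and how the estimates were rounded is not given in the sources used here. Counts were divided by library totals for CPM. Folds came from edgeR 4.0.16 in R 4.3.3, tested on simulated data first. Genes passed filterByExpr (at least 10 counts, total at least 15), libraries were scaled by TMM, and 1 model with a coefficient for each group took in all 15, leaving 7 residual degrees of freedom for quasi-likelihood testing. Alternatives were DESeq2 1.42.0 (Wald, and ashr 2.2.63), RLE factors, other filters, batch terms, fewer groups and each library left out.

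The label's batches pair equal replicate numbers in the P0 and lung groups and in P1 to P3. Deviations from group means correlated at 0.139 to 0.209 among the P0 and lung groups and 0.354 to 0.451 among P1 to P3. Between groups that share no batch they correlated at -0.104 to 0.127, so the pairing is weak among the P0 and lung groups. Counts of replicates differed by more than sampling (chi-square over its degrees of freedom 38.6 to 129), and counting intervals cover counting error only. The methods describe replicates as independent biological samples. Positions are from GENCODE M21 on GRCm38.

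Ligands with at least 5 CPM in every library of a group were named with all values, folds were given where called, and the rest by ranges. Members and lists were chosen with earlier results of these data known.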

Additional observations from a re-analysis of the deposited data

How the results depend on the processing

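Of the 47 calls of a ligand in a comparison, 25 held in every setting that could test the gene. Without some library 21 were lost, and 0 changed direction. Where at least 50 counts in 2 libraries were required, Ccl5, Ccl12, Ccl19 and Cxcl15 could not be tested. DESeq2's Wald test lost 3, ashr 6, RLE factors 1, the replicate block 3 and fitting only the groups compared 9, while 0 were lost without a filter or within batch c. The ligands called higher in P0 Emcn+ numbered 1 under the Wald test, under ashr and with at least 50 counts in 2 libraries, where Ccl12 could not be tested. In lung the number called higher was 2 under the Wald test, ashr and no filter, and with only the groups compared it was 0, with 3 lower. BM MSC over P0 Emcn- had 1 higher with at least 50 counts, where Cxcl15 could not be tested, and 1 with only the groups compared. It had 3 under the Wald test and no filter (with Cx3cl1) and the replicate block (with Ccl28). P1 over P0 Emcn- had 1 higher, Cxcl13, under the Wald test, no filter and the replicate block. P3 over P1 had 2 lower under the Wald test and 1 under ashr and no filter. BM MSC over the passaged cells had 5 lower under the Wald test and in batch c. The cause was not tested.

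With a library left out, the ligands called higher and lower numbered 1 to 2 and 7 to 10 in P0 Emcn+ over P0 Emcn-, 1 to 2 and 3 to 6 in lung, 1 to 3 and 6 to 10 in BM MSC over P0 Emcn-, 0 to 2 and 3 to 7 in P1, 0 to 0 and 0 to 0 in P3 over P1, and 5 to 8 and 2 to 4 in BM MSC over the passaged cells. Where an arm kept 1 library, it was assumed to vary like the other groups. At the depth of P0 Emcn- replicate 2, 3 counts were 0.303 CPM, so differences among ligands under that level could not be seen.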
